A study of Mus musculus with 6 samples.

Results

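The mouse miR-31 hairpin gives 2 mature microRNAs (miRNAs), miR-31-5p (mmu-miR-31-5p in the table) and miR-31-3p (mmu-miR-31-3p). Both are described here in exosomes from bone marrow-derived macrophages. They were taken by name from the deposited count table and are 2 of its 707 miRNA names. They were chosen by their counts in the WT and san:san libraries, which were lower in san:san, so every WT against san:san value of either arm is a description, with no test. The 6 small RNA libraries came from macrophage culture supernatants of C57BL/6 mice, 3 labelled WT and 3 labelled Roquin-1 san:san. The protein Roquin-1 binds messenger RNAs at stem-loops and marks them for decay. The label's san is sanroque, an allele of the Roquin-1 gene. The labels give no treatment or age, nor whether a replicate is a mouse, a culture or a repeat, so SDs may be technical.

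A miRNA hairpin is cut into a duplex of its 5p and 3p arms. One arm is usually loaded into an Argonaute protein as the guide, and the other is mostly degraded. The guide pairs with messenger RNAs through its seed, bases 2 to 8. miR-31-5p is the usual guide of this hairpin. It is best known from epithelium, keratinocytes and activated T cells. Its known targets include Hif1an, an inhibitor of hypoxia signalling, and Lats2, a kinase of the Hippo pathway.

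The mature arms are shown with their seeds in capitals, and the hairpin with both arms in capitals, because the arm comparison rests on them (RefSeq, GRCm38.p6).
miR-31-5p: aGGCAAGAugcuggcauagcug
miR-31-3p: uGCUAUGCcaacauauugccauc
Mir31 hairpin: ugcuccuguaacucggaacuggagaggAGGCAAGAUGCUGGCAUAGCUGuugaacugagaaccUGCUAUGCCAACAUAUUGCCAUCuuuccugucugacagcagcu
The hairpin of 106 bases lies at chr4:88910557-88910662 on the minus strand of GRCm38.p6. The GENCODE annotation of the same build places it inside exon 3 of a long non-coding RNA gene, AL805899.1, on the same strand. The nearest protein-coding gene in the RefSeq table was Ifne, an epithelial type I interferon gene, followed by Ifna1. The nearest other miRNA gene was Mir491, whose 5p arm was at 0 in the WT libraries and at 4, 2 and 0 counts in the san:san libraries.

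Neither seed was shared with another of 1678 mouse mature miRNAs in RefSeq. The closest other mature sequence was 6 edits from miR-31-5p and 8 edits from miR-31-3p. Reads of either arm therefore had no near-identical miRNA in RefSeq to be split with. In the predicted fold of the hairpin (RNAfold, -48.7 kcal/mol) 17 bases of the 5p arm paired with the 3p arm, in 9 G-C and 8 A-U pairs. Of the first 4 bases of each arm, 3 of the 5p arm and 2 of the 3p arm were in G-C pairs. The 5p arm starts with A and the 3p arm with U.

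Sequencing depth differed by genotype, with totals of 12447 to 28884 counts per WT library and 126098 to 185901 per san:san library. Levels are CPM (counts set on 1 common library total) after TMM scaling, a correction for library composition. One count therefore stood for 27.8 to 69.5 CPM in a WT library, but for 6.31 to 10.2 CPM in a san:san library. All intervals are 95% exact intervals that cover counting error, not the spread between replicates.

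miR-31-5p, the guide arm, was far lower in san:san than in WT, but it was still detected in every library. WT replicates 1 to 3 held 29, 124 and 113 counts of it, and san:san replicates 1 to 3 held 10, 19 and 4. The raw counts alone were higher in each of the shallow WT libraries than in any of the deep san:san libraries. As a share of all miRNA counts it made up 0.233% (0.156 to 0.334), 0.429% (0.357 to 0.512) and 0.519% (0.428 to 0.624) in WT. The shares in san:san were 0.00538% (0.00258 to 0.00989), 0.0118% (0.00712 to 0.0185) and 0.00317% (0.000864 to 0.00812). The intervals of the genotypes lay well apart.

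Within WT, replicate 1 stood below the other libraries, since its interval did not reach either of theirs. Within san:san, replicate 2 had the highest share and replicate 3 the lowest, and their intervals overlapped.

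**Figure D1:**
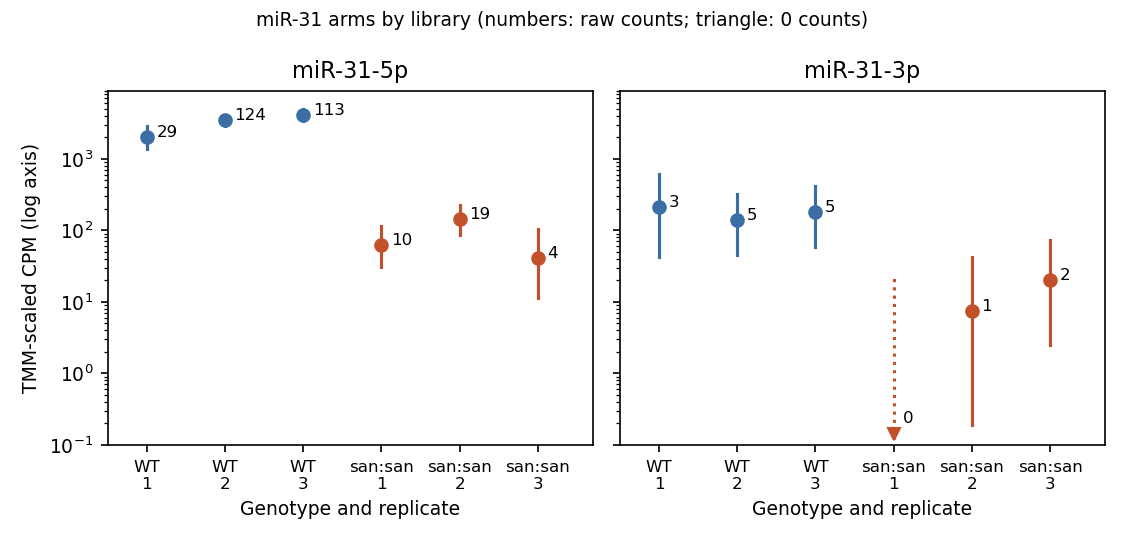
TMM-scaled CPM of miR-31-5p (left) and miR-31-3p (right) on a log axis, for each WT (blue) and san:san (orange) library. Points carry the raw count, bars are 95% exact Poisson intervals, and the dotted bar is the interval of a count of 0. The 3 WT libraries sit above the 3 san:san libraries in both panels, and the bars are much longer for the 3p arm.

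On the TMM scale miR-31-5p stood at 2017, 3441 and 4093 CPM in WT and at 63.1, 143 and 41.0 CPM in san:san. The means were 3184 ± 1062 and 82.3 ± 53.6 CPM (SD, n = 3 each). The genotypes did not overlap, and the lowest WT library was 14.1-fold above the highest san:san library. Of the 254 miRNAs that passed the low-count filter, 31.1% had all 3 san:san libraries below all 3 WT libraries, so such a separation was common in this contrast. Part of that share was set by the filter, whose limit takes fewer counts in the shallow WT libraries than in the san:san libraries. The log2 fold estimated with edgeR was -5.25 ± 0.37 (SE), that is 38.1-fold lower. It was the 13th most lowered of the 254. The median log2 fold of all tested miRNAs was 0.30, and miR-31-5p lay 5.55 below it. From the counts summed per genotype, 266 in WT and 33 in san:san, the ratio of scaled counts was 40.2 (counting interval 27.9 to 59.6).

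The scaling set the size of this ratio but not its direction. With total counts in place of TMM the ratio was 60.4 (42.0 to 89.5). The authors' own scaled values in the per-sample tables were 2462, 4582 and 5535 in WT and 57.95, 127.6 and 34.34 in san:san. Each was the table's count multiplied by a constant of its library.

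miR-31-3p, the minor arm, was near the detection limit in san:san. Its counts were 3, 5 and 5 in WT replicates 1 to 3 and 0, 1 and 2 in the san:san replicates. These were 209, 139 and 181 CPM in WT and 0, 7.52 and 20.5 CPM in san:san, with means of 176 ± 35.2 and 9.34 ± 10.4 CPM (SD, n = 3 each). The 0 of 185901 counts in san:san replicate 1 allows up to 23.3 CPM, the upper end of its exact interval. The genotypes did not overlap in CPM, but the counting intervals of WT replicates 1, 2 and 3 began at 43.0, 45.1 and 58.8 CPM, below the upper end of 74.0 CPM in san:san replicate 3. From 13 counts over WT and 3 over san:san the ratio of scaled counts was 21.6, with a counting interval of 5.94 to 118. That interval contains the 40.2 of the 5p arm, so a difference between the arms in the size of the ratio was not detectable at this depth.

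Both arms passed the low-count filter through WT. The filter uses CPM of the plain totals, without TMM factors, and on that scale each arm was above its limit of 129 in 3 of 3 WT libraries and 0 of 3 san:san libraries. A miRNA that passes in this way had to differ, so no count of called arms is given.

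In the abundance order, miR-31-5p moved from the upper part of the WT list to the middle of the san:san list. By raw count it ranked 58, 40 and 38.5 among the 337, 460 and 428 miRNAs detected in the WT libraries. In the san:san libraries it ranked 254.5, 205.5 and 308 among 520, 499 and 465. Tied counts share their mean rank, and in san:san replicate 3 another 32 names had the same 4 counts. miR-31-3p ranked 201.5, 242.5 and 222.5 in WT and 452.5 and 371 in san:san replicates 2 and 3. In san:san replicate 1 it was not detected.

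By mean CPM miR-31-5p was the 45th of 707 names in WT and the 241st in san:san, and miR-31-3p the 221st and 429th. The 3 names just above miR-31-5p in WT were miR-378c, the lymphocyte miRNA miR-150-5p and miR-19b-3p of the miR-17-92 cluster, at 3781 ± 1776, 3751 ± 428 and 3297 ± 1365 CPM. The 3 just below were miR-125a-3p, miR-22-3p and miR-146b-5p, at 3078 ± 328, 3020 ± 489 and 2947 ± 596 CPM (SD, n = 3). None of these 6 means was further from that of miR-31-5p than its SD of 1062 CPM, so their order in WT is not resolved. In san:san the same 6 names stood at places 122, 15, 26, 183, 37 and 48, all above miR-31-5p.

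**Figure D2:**
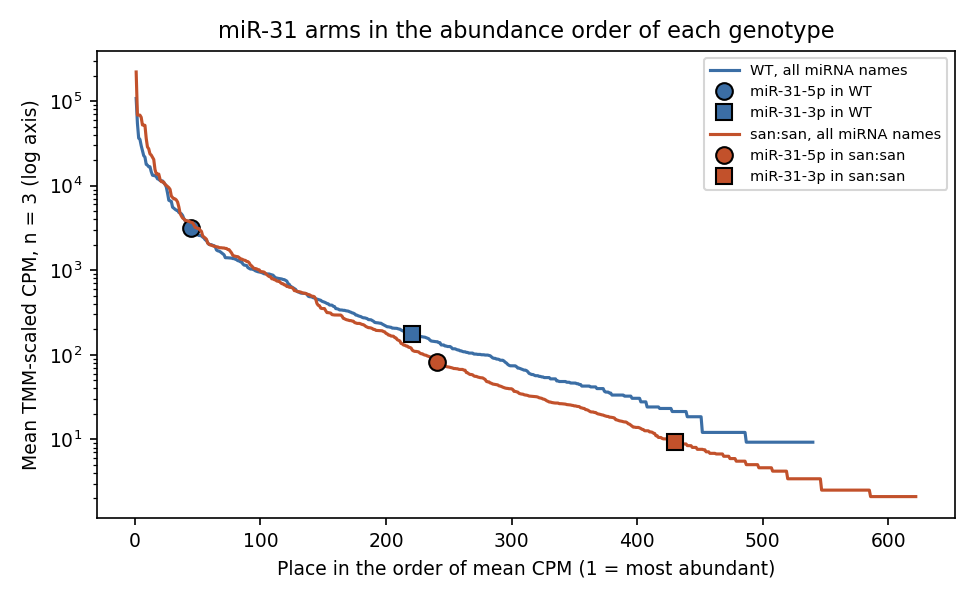
Mean TMM-scaled CPM (n = 3, log axis) of every detected miRNA name against its place in the order, for WT (blue) and san:san (orange), with miR-31-5p as circles and miR-31-3p as squares. The 5p arm is at place 45 in WT and 241 in san:san, and the 3p arm at 221 and 429.

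The 5p arm was the major arm in both genotypes. In WT it gave 29 of 32, 124 of 129 and 113 of 118 counts of the hairpin, or 90.6% (75 to 98.0), 96.1% (91.2 to 98.7) and 95.8% (90.4 to 98.6). In san:san it gave 10 of 10, 19 of 20 and 4 of 6, and the interval of the last, 22.3% to 95.7%, shows how little 6 counts say. Summed per genotype, the 5p share was 95.3% (92.2 to 97.5) of 279 counts in WT and 91.7% (77.5 to 98.2) of 36 counts in san:san. The intervals overlapped. The 5p to 3p ratio was 20.5 in WT and 11 in san:san, a difference of -0.90 on the log2 scale. This sign rested on san:san replicate 3, without which the difference was 0.50. A shift of arm use was therefore not detectable at this depth.

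In pooled counts, the arm ratio of many other hairpins differed between genotypes. Both arms were named in the table for 198 hairpins. Of these, 113 had at least 20 counts over both arms in each genotype, and in 94 no arm was at 0. The minimum leaves out hairpins that are nearly gone in san:san, such as miR-9. Over these 94 the median size of the change in the arm log2 ratio was 1.15, and miR-31 was the 57th by size. In 36 hairpins, and not in miR-31, the counting intervals of the 5p share lay apart between genotypes. For miR-31 the san:san interval rested on 36 counts, so a shift could go unseen there. The 3 with the largest fall of the ratio were miR-328 (56.1% 5p in WT and 0.834% in san:san), miR-1249 (91.9% and 10%) and miR-326 (38.3% and 0.763%). The 3 with the largest rise were miR-149 (14.8% and 98.3%), miR-139 (79.5% and 99.5%) and miR-125a (57.1% and 95.5%). Of the 3 hairpins closest to miR-31 in total WT count, miR-99b went from 58.2% to 90.5% 5p, miR-199a from 25.3% to 33.8% and miR-199b from 17.9% to 38.9%. The last 2 have identical 3p counts. These are shares of pooled counts with no test over replicates.

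**Figure D3:**
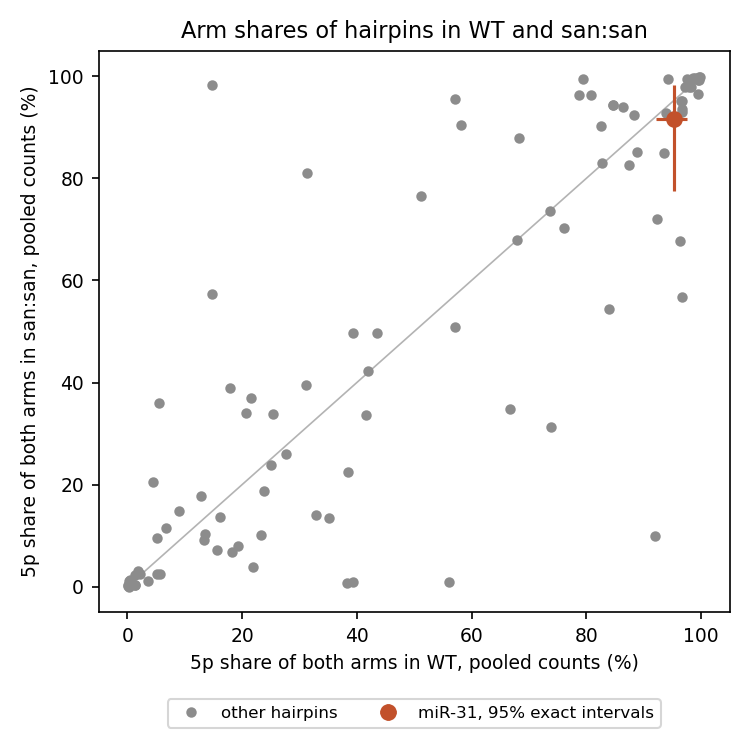
5p share of both arms, in percent of pooled counts, in WT (x axis) and san:san (y axis) for 94 hairpins, with the line of equal shares. miR-31 (orange, with 95% exact intervals) is at 95.3% and 91.7%, and its intervals reach the line.

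The arms of miR-31 were low together. Among all 52 hairpins with both arms past the low-count filter, with no minimum per genotype, 3 had both arms at least 4-fold lower in san:san, a limit chosen after the values were seen. They were miR-9, miR-31 and miR-351. Both arms of miR-31 were chosen as low. The arms of all 3 hairpins passed the filter through WT alone, and so had to differ. The 3 of 52, and the place of miR-31 among them, are therefore only a description. The miR-9 arms summed to 35 (5p) and 105 (3p) counts in WT, against 8 and 5 in san:san (log2 fold -4.31 and -6.63). The WT counts of the miR-351 arms summed to 23 and 22, and those of san:san to 26 and 8 (log2 fold -2.10 for 5p and -3.65 for 3p). In 12 hairpins 1 arm was at least 4-fold lower and the other was not. An example is miR-23a, whose 5p arm stood at log2 -6.20 and whose 3p arm at -0.26. The other 37 had neither arm so low. The folds of arms with few counts, miR-31-3p among them, are uncertain.

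**Figure D4:**
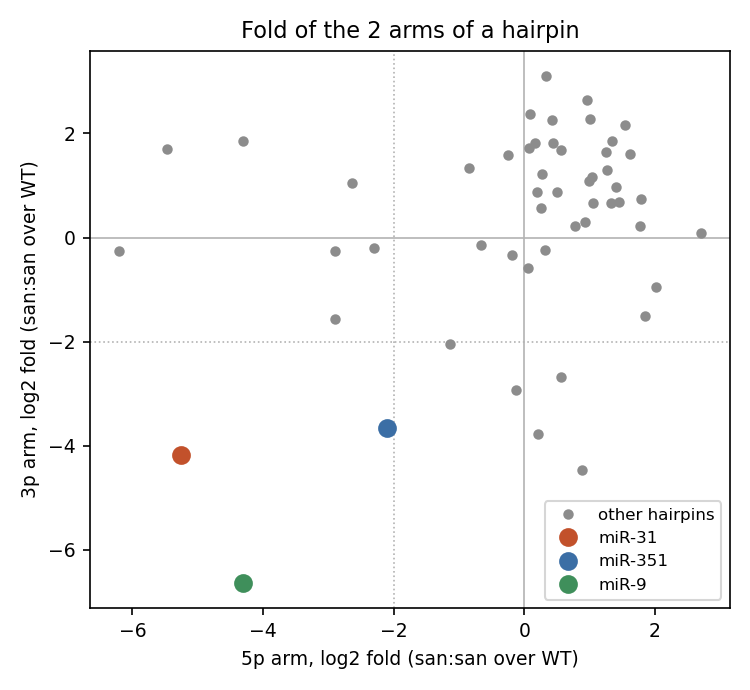
Log2 fold (san:san over WT, edgeR) of the 3p arm against that of the 5p arm for all 52 hairpins with both arms tested. Dotted lines mark 4-fold lower. The lower left field holds miR-31 (orange, -5.25 and -4.17), miR-351 (blue, -2.10 and -3.65) and miR-9 (green, -4.31 and -6.63).

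The miRNAs whose profile over the 6 libraries was most like that of miR-31-5p were miR-196a-5p, miR-3473b, miR-193a-5p, miR-3473f and miR-29b-1-5p. Likeness was the Euclidean distance between log2 CPM profiles, each centred on its own mean, over 244 other profiles. Before the log, 2 counts scaled to library size were added to each value, which flattens profiles with few counts. The distances were 0.99, 1.06, 1.25, 1.30 and 1.42. All 6 libraries enter this measure, so it mostly repeats the genotype difference by which miR-31 was chosen. All 5 passed the low-count filter through WT. miR-196a-5p, encoded within the Hox clusters, was counted 70, 157 and 113 times in WT, against 19, 38 and 9 times in san:san. For miR-193a-5p the WT counts were 27, 73 and 55, and those of san:san 14, 20 and 5. miR-29b-1-5p, a minor arm of the miR-29 family, had 13, 39 and 40 in the WT libraries, against 10, 12 and 2. The rodent names miR-3473b and miR-3473f had 18, 58 and 37, and 11, 28 and 15, counts in WT. They had 6, 5 and 2, and 0, 1 and 0, in san:san. For miR-3473f, with a log2 fold of -7.37, the added counts exceed those of san:san and bring its profile closer to that of miR-31-5p. miR-31-3p came 33rd, at a distance of 3.37. Its 0, 1 and 2 counts in san:san were fewer than the added counts, so this distance does not show that the arms differ in profile.

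**Figure D5:**
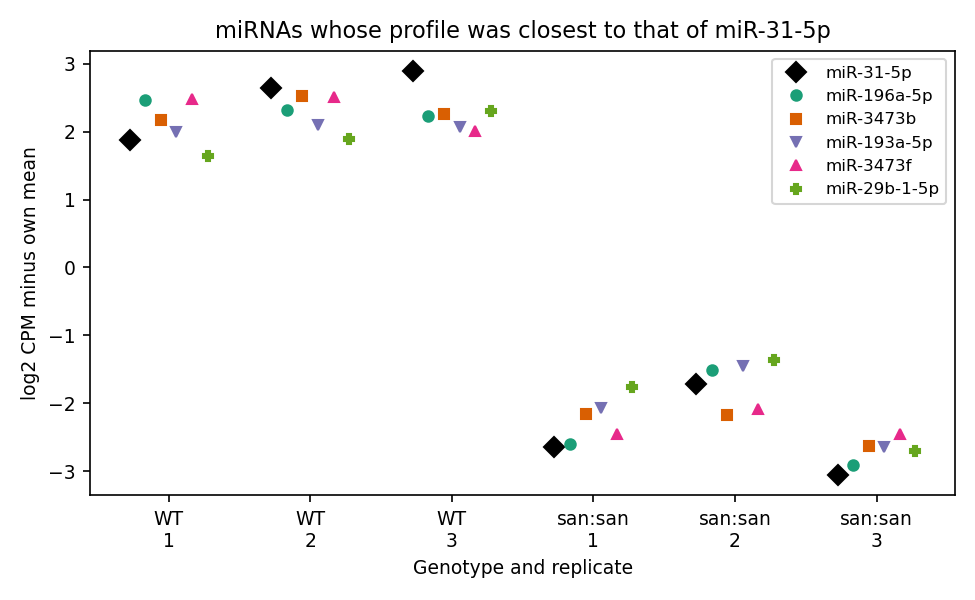
Log2 CPM (2 counts scaled to library size added) minus the miRNA's own mean over the 6 libraries, for miR-31-5p (black diamonds) and the 5 miRNAs with the closest profiles. All WT values lie above 1 and all san:san values below -1.

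The mature sequences of these 5 are shown with seeds in capitals to set beside that of miR-31-5p (RefSeq, GRCm38.p6).
miR-196a-5p: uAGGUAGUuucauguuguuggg
miR-3473b: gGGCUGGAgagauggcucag
miR-193a-5p: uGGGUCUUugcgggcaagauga
miR-3473f: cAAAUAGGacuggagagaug
miR-29b-1-5p: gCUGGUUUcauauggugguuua
The 5 seeds differ from each other and from that of miR-31-5p.

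Epithelial miRNAs, whose tissues are rich in miR-31, were at or near 0 in the WT libraries. Of 11 listed names 8 were in the table and 0 were deep enough to test. The miR-200 family names miR-200a-3p, miR-200b-3p, miR-200c-3p, miR-141-3p and miR-429-3p had 0 counts over WT, where miR-31-5p had 266. Over the deeper san:san libraries they had 4, 9, 12, 8 and 6, or 12.6 to 32.1 mean CPM, near or below the worth of 1 count in a WT library. For any of these names alone, no direction can be read. Each was at 0 in WT and above 0 in san:san, and their pooled counts were not tested. miR-205-5p, a keratinocyte miRNA, stood at 59.4 mean CPM in WT (4 counts) and 33.3 in san:san (13 counts). miR-182-5p had 6 counts in WT and 0 in san:san, and miR-183-5p 1 and 6. Over the 8 names the share of counts was 0.0138% to 0.0230% in WT libraries and 0.0106% to 0.0159% in san:san libraries.

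Members of 4 other marker lists were read against 34.6% higher and 29.5% lower calls among all 254 tested miRNAs (edgeR's quasi-likelihood test, Benjamini-Hochberg adjusted p under 0.05). That split was 88 higher and 75 lower with TMM, 49 and 101 with total counts, and 64 and 82 with DESeq2. Without the low-count filter it was 102 and 105 among 707. Of 8 macrophage and myeloid miRNAs tested 6 rose and 0 fell, with a median log2 fold of 0.92. The 2 with the smallest p were miR-342-3p, which rose by 1.87 ± 0.22 (SE, edgeR adjusted p = 5.91e-06), and miR-142a-3p, by 2.65 ± 0.33 (1.12e-05). The 2 that did not pass were miR-146a-5p (0.26 ± 0.25) and miR-146b-5p (0.15 ± 0.20). With total counts 3 of the 8 rose. When WT replicate 2 was left out, 4 of 10 tested rose, beside 68 of all 290 tested in that setting.

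Of 5 erythroid names tested 4 rose and 0 fell (median 1.97), 2 of them the miR-486 names with identical counts. The share of the 5 names was 3.84% to 6.25% in WT and 15.6% to 17.9% in san:san. Both these shares and the library totals hold the miR-486 counts under both names. Of 6 T cell miRNAs tested 3 rose and 0 fell (median 0.84; 2 rose with total counts), among them miR-150-5p by 2.46 ± 0.21 (edgeR adjusted p = 3.54e-07). With TMM the fibroblast and stromal list was below the shares over all miRNAs, since of 12 tested 3 rose and 3 fell (median 0.15, beside 0.30 over all tested, and -0.44 with total counts, where 1 rose and 5 fell). The fallen members included miR-196a-5p, also closest to miR-31-5p in profile, and its relative miR-196b-5p (-4.19 ± 0.32, edgeR adjusted p = 1.22e-07). Among those that rose were miR-199b-5p (1.77 ± 0.29) and miR-199a-5p (0.78 ± 0.23), so the list went both ways. Without WT replicate 3 the stromal list had 5 higher and 3 lower of 13 tested. In that setting 85 were higher and 74 lower among all 287 tested. The part of any of these cell types, or of depth, in the miR-31 values was not tested. In bulk exosome RNA, fewer vesicles of a kind and less miR-31 per vesicle cannot be told apart.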

How the data were processed

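The authors deposited whole-number counts per mature miRNA for 6 libraries, and per-sample columns headed TPM that sum to more than TPM values can (1056890 to 1082573), treated here as a scaled signal. Those deposited signal values equalled the counts times a library constant within 0.1 reads, except for 1 name in WT replicate 2. The submitters' processing notes name the build mm9. For the aligner, trimming, filters and miRNA release, the sources used here give nothing. Groups and replicate numbers came from the titles.

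Counts were fitted with edgeR 4.0.16 in R 4.3.3 (filterByExpr with a minimum count of 10, TMM, robust quasi-likelihood fit, genotype as the only term, Benjamini-Hochberg over 254 miRNAs), with DESeq2 1.42.0 as an alternative. Library sizes were all counts of a library. The procedure was tested on simulated data. Shares carry Clopper-Pearson intervals, and ratios of pooled counts exact conditional intervals. Replicates of a genotype differed beyond sampling noise (chi-square per degree of freedom 3.18 to 18.6). Of 707 names, 573 matched RefSeq mature sequences. Hairpins were folded with RNAfold 2.7.2. The columns of other samples numbered 0.

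The miR-31 arms, the marker lists and the rule for named miRNAs were chosen with earlier results of these data known. The rule named both arms, names sharing a seed, the 5 closest profiles, the 3 names on each side of miR-31-5p in WT, 9 hairpins (3 largest rises, 3 largest falls and 3 closest in WT count) and up to 4 members of each list by p. miR-351, miR-9, miR-23a, miR-491, miR-146a-5p and the epithelial names were named after their values were seen.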

Additional observations from a re-analysis of the deposited data

How the results depend on the processing

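The log2 fold of miR-31-5p was negative under each of the 14 alternatives run, from -5.84 to -5.05 with a library left out and -5.84 with total counts. That of miR-31-3p, main value -4.17, was -4.74 with total counts and -4.67 with DESeq2. Both moves were above the SD of 0.35 between its replicates on the log2 CPM scale, an SD shrunk by the 2 counts added before the log. They were below the SE of the fold, 0.73 with edgeR and 1.08 with DESeq2. With any 1 library left out the 3p arm fell below the count filter and gave no value. The arm ratio difference ranged from -1.55 to 0.50 with a library left out, and was positive, 0.50, without san:san replicate 3. The number of called miRNAs, 163, ranged from 133 to 175 with a library left out. Deviations of same-numbered libraries had correlations of 0.10, -0.08 and 0.26, and those of differently numbered libraries ran from -0.21 to 0.15. These few values do not settle whether the libraries were paired. A fit with replicate as a block called 161 miRNAs, with folds of -5.19 (5p) and -4.12 (3p). Merging identical rows changed the drop in mean rank from WT to san:san from 210.5 to 202 places for miR-31-5p and from 257 to 254 for miR-31-3p. In the means of miR-31-3p, its 0 in san:san replicate 1 took the shared rank of all names at 0. Depth limits the 3p arm and the arm ratio most, since both rest on 3 counts in san:san.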

Other observations

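miR-193a-5p, the third closest profile, carries the stretch GGCAAGAUG of miR-31-5p, which contains its whole seed. The stretch is at bases 2 to 10 of miR-31-5p and at bases 13 to 21 of miR-193a-5p, outside that miRNA's own seed. It was noticed after the values were seen and is shown in capitals.
miR-31-5p: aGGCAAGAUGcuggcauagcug
miR-193a-5p: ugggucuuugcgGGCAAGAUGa
Of 1678 other mouse mature miRNAs in RefSeq, 2 (0.119%) share a stretch of at least 9 bases with miR-31-5p. The other is miR-1941-5p. The longest stretch shared by miR-31-5p with each of the other 4 closest profiles was 3 to 5 bases. No test was made, and the sequences of the reads were not analysed here.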
